A study of Komagataella phaffii GS115 with 3 samples.

Results

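Protein folding in the endoplasmic reticulum (ER) and its control were followed through 4 genes of Komagataella phaffii, the methylotrophic yeast long known as Pichia pastoris. They are the chaperone gene KAR2 (PAS_chr2-1_0140), the protein disulfide isomerase gene PDI1 (PAS_chr4_0844), the ER oxidase gene ERO1 (PAS_chr1-1_0011) and HAC1 (PAS_chr1-1_0381), which encodes the transcription factor of the unfolded protein response. They were chosen by locus tag for their function, out of 5040 genes listed. The deposited tables and the reference gene table hold only locus tags, so neither could be used to check the 4 gene names. All 4 were measured in every library.

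RNA-seq was run on total RNA freed of ribosomal RNA, giving 3 libraries of strain GS115, a histidine-requiring expression host, with 1 library in each group. The untreated library came from GS115 in regular culture. The H2O2-treated library came from GS115 exposed to hydrogen peroxide, and the hmt-deficient library from a GS115 derivative lacking hmt in regular culture. The sources used here do not give the dose and time of H2O2, the medium, the locus meant by hmt, the way it was disrupted or the number of clones, so loss of hmt could not be checked in the data.

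Secretory proteins enter the ER unfolded. Kar2, an ER member of the Hsp70 family known as BiP in animals, binds them and helps them fold, while Pdi1 forms and rearranges their disulfide bonds. Ero1 reoxidises Pdi1 by passing electrons to oxygen, a reaction that makes H2O2 in the ER lumen. In Saccharomyces cerevisiae, unfolded proteins activate the kinase and nuclease Ire1, which removes an unusual intron from HAC1 mRNA, and the Hac1 protein then activates genes for ER chaperones and oxidative folding. In K. phaffii, HAC1, KAR2, PDI1 and ERO1 are all commonly overexpressed to improve secretion of recombinant proteins. Levels per gene, as deposited, do not separate spliced from unspliced HAC1 mRNA.

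Values are FPKM, the number of fragments on a gene divided by its length and by a library total, which are per length and so can be set side by side for different genes in a library. The totals behind FPKM, recovered from the values, came, in units of 1000000 fragments, to 15.4 for untreated GS115, 22.4 with H2O2 and 18.3 without hmt. The 4 genes were covered by 2654 to 28670 fragments per library, so counting error was small. Intervals in parentheses are exact 95% intervals that cover counting error only. With 1 library per group no difference between libraries has a replicate check, and no p-value was computed. In bulk RNA of a culture, a lower level in all cells and fewer cells expressing a gene cannot be told apart.

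PDI1 was the highest of the 4 genes in every library, and the order of the other 3 differed between libraries. In untreated GS115, PDI1 stood at 560 FPKM, KAR2 at 371, HAC1 at 174 and ERO1 at 111 FPKM, and no neighbours in this order overlapped in their counting intervals. These levels placed PDI1 at percentile 93.3, KAR2 at 90.0, HAC1 at 79.5 and ERO1 at 67.3 of all listed genes. In the H2O2-treated library PDI1 stood at 825 FPKM, ERO1 at 546, KAR2 at 545 and HAC1 at 199 FPKM. ERO1 thus passed from last to level with KAR2, whose counting interval overlapped its own, and HAC1 was lowest. In the hmt-deficient library PDI1 stood at 484 FPKM, ERO1 at 224, HAC1 at 223 and KAR2 at 179 FPKM. There ERO1 and HAC1 overlapped, and KAR2 had passed from second to last.

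**Figure D1:**
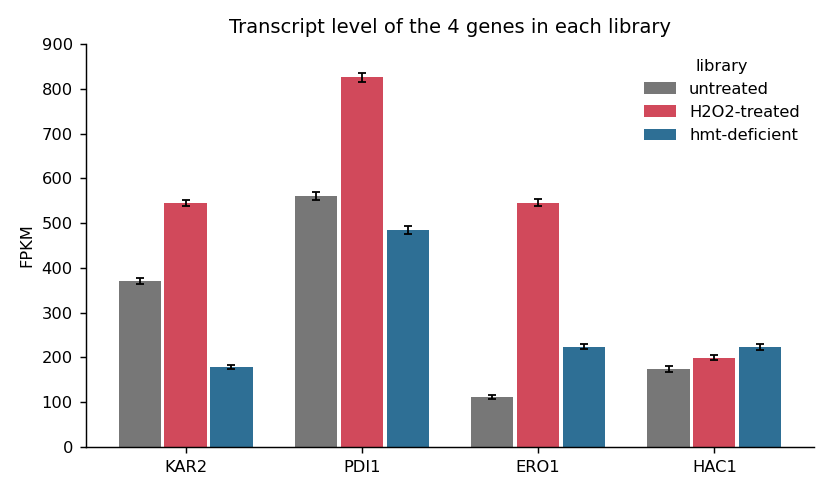
FPKM (linear axis) of KAR2, PDI1, ERO1 and HAC1 in each of the 3 libraries, 1 library per bar, with 95% counting intervals. PDI1 is highest in each library, ERO1 ranges from 111 to 546 FPKM, and HAC1 stays between 174 and 223 FPKM.

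The first comparison addressed how ER folding genes stood after exposure of GS115 to H2O2. ERO1, the oxidase gene, was 4.92-fold higher in the H2O2-treated library (4.73 to 5.13), at 546 against 111 FPKM. KAR2 and PDI1 were higher by nearly the same factor, KAR2 1.47-fold (1.44 to 1.50) and PDI1 1.47-fold (1.44 to 1.50). HAC1 was 1.15-fold higher (1.09 to 1.20), the smallest difference of the 4. The median log2 ratio was -0.38 over the 4964 genes tested (those reaching 10 FPKM in either library). Log2 ratios are of FPKM plus 1. Among well expressed genes, where all 4 belonged by the bins described below, the median was 0.03. A higher level was thus at least as common there as a lower one, and was not particular to these 4 genes.

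Of the 4 genes, 1 (ERO1) was at least 2-fold higher and 0 were at least 2-fold lower, where 8.88% of all genes tested were higher and 25.8% lower by that much. Of all genes past 2-fold 25.6% were higher, or 50.8% after centring on the median. Centring subtracts the median of -0.38 from every ratio, so by construction it moves calls from lower to higher. ERO1 also passed 4-fold, as did 2.60% of genes in that direction. Its log2 ratio of 2.29 was exceeded by 96 of the 4964 genes. KAR2 (log2 ratio 0.55) and PDI1 (0.56) lay at percentiles 83.1 and 83.2, and HAC1 (0.20) at percentile 72.9. Relative to the median of all genes the log2 ratios were 2.67 for ERO1, 0.94 for KAR2, 0.94 for PDI1 and 0.58 for HAC1.

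The median ratio after H2O2 differed with expression level and coding length, so in each comparison the genes were also read against others like them, a comparison added after seeing the data. Genes were put into 5 equal bins by their level in the library outside the pair compared, so that the compared values did not decide the bin. By level in the hmt-deficient library all 4 belonged to the highest bin, whose median log2 ratio was 0.03 and of which 19.3% were at least 2-fold higher. Within it, ERO1 stood at percentile 95.3, PDI1 at 69.1, KAR2 at 68.8 and HAC1 at 56.2. HAC1 was thus near the middle of well expressed genes. KAR2, with a coding length of 2037 bases, belonged to the longest of 5 bins of coding length, whose median log2 ratio was -0.65, and stood there at percentile 92.7. In their own length bins ERO1 stood at percentile 97.8, PDI1 at 84.0 and HAC1 at 66.8.

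**Figure D2:**
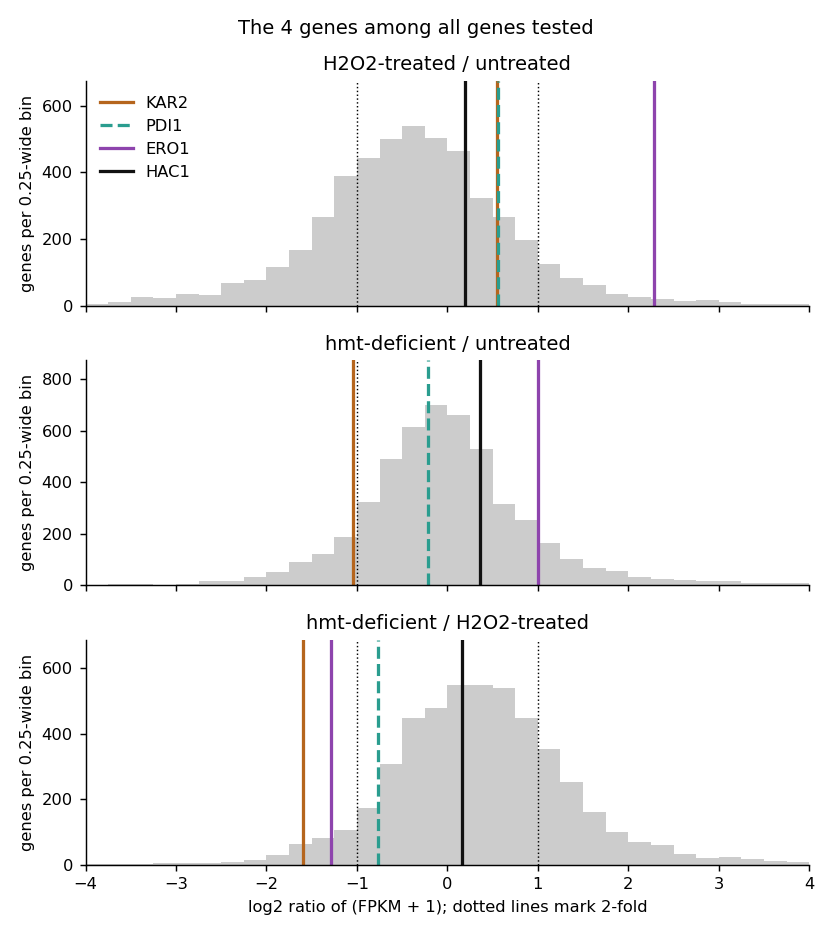
Number of genes (vertical axis) by log2 ratio of FPKM plus 1 (horizontal axis, shown from -4 to 4, in bins 0.25 wide) for each pair of libraries, with coloured lines at the 4 genes and dotted lines at 2-fold. ERO1 lies far right after H2O2, where the lines of KAR2 (0.55) and PDI1 (0.56, dashed) nearly coincide; KAR2 lies left of -1 in both comparisons of the hmt-deficient library.

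In the second comparison, of hmt-deficient with untreated GS115, the folding genes lay on different sides. KAR2 was 2.07-fold lower (2.01 to 2.13), at 179 against 371 FPKM. ERO1 was 2.02-fold higher (1.93 to 2.11), at 224 against 111 FPKM. PDI1 was 1.16-fold lower (1.13 to 1.18) and HAC1 1.29-fold higher (1.22 to 1.35). The log2 ratios were -1.05 for KAR2, -0.21 for PDI1, 0.36 for HAC1 and 1.01 for ERO1, beside a median of -0.07 over 4992 genes.

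By the 2-fold threshold 1 of the 4 genes (ERO1) was higher and 1 (KAR2) lower, beside 11.1% of all genes higher and 11.0% lower. Of all genes past 2-fold 50.1% were higher, or 59.8% with equal totals and 65.3% with the authors' normalized column for the hmt-deficient library. ERO1 and KAR2 both lay close to the threshold, and the counting interval of ERO1 included 2-fold. KAR2 was no longer past 2-fold once the libraries were scaled to equal totals (log2 ratio -0.92) or centred on the median (-0.98). It also fell short with the authors' normalized column (-0.85), which is off-scale against untreated FPKM. That column sums to 1.07e+06, as H2O2-treated FPKM does, beside 1.02e+06 for untreated FPKM. Its ratios to untreated therefore lie above those with equal totals. ERO1 remained past 2-fold with equal totals (1.13), centring (1.07) and the normalized column (1.20). With a pseudocount of 10 the reverse held: ERO1 fell short (0.95) and KAR2 stayed past 2-fold (-1.01). Of the 4992 genes, 501 had a lower ratio than KAR2. By level in the H2O2-treated library all 4 belonged to the highest bin, in which 16.1% of genes stood at least 2-fold above and 11.8% below untreated. There KAR2 stood at percentile 10.2, PDI1 at 41.6, HAC1 at 67.1 and ERO1 at 84.2. By mean FPKM over the 3 libraries, where the compared values enter, 17.1% of the highest bin were lower and KAR2 stood at percentile 15.6. In the longest bin of genes, whose median log2 ratio was 0.11, KAR2 stood at percentile 5.07. In their own length bins ERO1 stood at percentile 87.6, HAC1 at 73.6 and PDI1 at 37.4.

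The third comparison set the hmt-deficient library directly against the H2O2-treated one, where strain and treatment differ together. KAR2 was 3.04-fold lower in the hmt-deficient library (2.96 to 3.12), ERO1 2.44-fold lower (2.37 to 2.51) and PDI1 1.70-fold lower (1.67 to 1.74). HAC1 was 1.12-fold higher (1.07 to 1.17) from FPKM as deposited, a direction that flips to a log2 ratio of -0.18 after centring on the median. Over 4966 genes the median log2 ratio was 0.34, and the log2 ratios were -1.60 for KAR2, -1.28 for ERO1, -0.77 for PDI1 and 0.16 for HAC1.

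Of the 4 genes 0 were at least 2-fold higher and 2, KAR2 and ERO1, at least 2-fold lower, where 23.0% of all genes tested were higher and 6.50% lower. Of all genes past 2-fold 78.0% were higher, or 53.6% after centring on the median. Here centring subtracts 0.34 and by construction moves calls from higher to lower. Only 111 of 4966 genes had a lower ratio than KAR2, and 203 a lower ratio than ERO1. Well expressed genes did not share the upward median. By level in untreated GS115, KAR2 and PDI1 belonged to the highest bin (median log2 ratio 0.01, 17.1% at least 2-fold lower), at percentiles 6.46 and 21.9. ERO1 and HAC1 belonged to the next bin (median 0.19, 4.77% lower), at percentiles 2.28 and 48.8. By mean FPKM over the 3 libraries all 4 were in the highest bin (median -0.04, 18.6% lower), with KAR2 at percentile 7.34, ERO1 at 13.7, PDI1 at 23.9 and HAC1 at 57.4. In the longest bin of genes, by coding length, 5 of 1004 had a lower ratio than KAR2. In their own length bins ERO1 stood at percentile 2.42, PDI1 at 5.85 and HAC1 at 52.4. Relative to the median of all genes PDI1 also passed 2-fold, at a log2 ratio of -1.11.

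**Figure D3:**
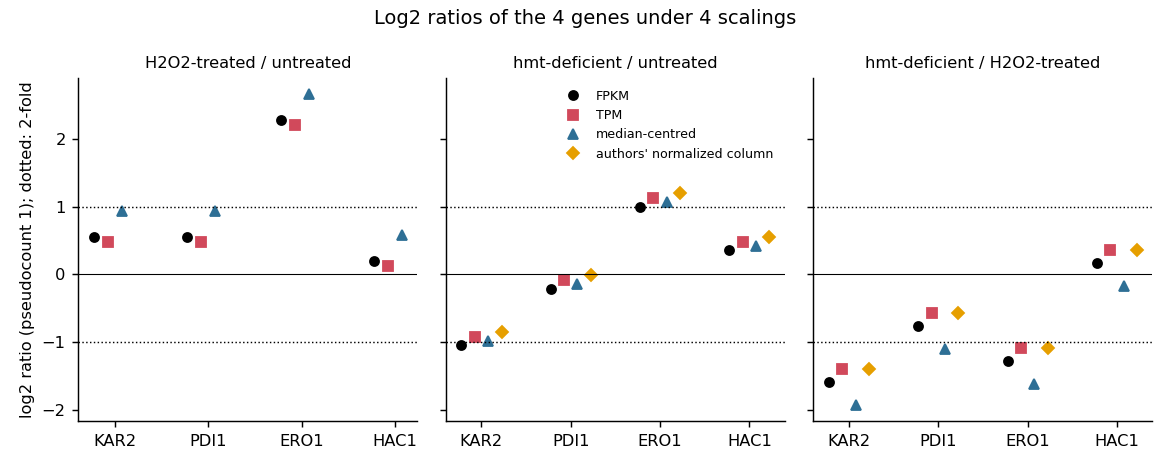
Log2 ratio (vertical axis, pseudocount 1) of each gene in the 3 comparisons. Scalings are FPKM as deposited, values scaled to equal library totals (TPM), and centring on the median gene. The authors' normalized column is drawn only for both comparisons of the hmt-deficient library. That of the H2O2-treated library equalled its FPKM, and against H2O2-treated the hmt-deficient column repeats TPM by construction. Against untreated the hmt-deficient column leaves the library totals unequal. Dotted lines mark 2-fold. KAR2 in the hmt-deficient library against untreated is -1.05, -0.92, -0.98 and -0.85 in that order, while ERO1 after H2O2 is past 2 in each scaling drawn for it.

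Ratios between genes inside a library do not depend on how libraries are scaled. Differences that vary with coding length do not cancel in them, and none were corrected for. After H2O2 the median log2 ratio was -0.65 in the length bin of KAR2, -0.43 in that of PDI1 and ERO1, and -0.22 in that of HAC1. Between hmt-deficient and H2O2-treated the medians were 0.73, 0.47 and 0.11 in the same order. How far this enters the ratios below was not tested. The KAR2 level was 0.662 times that of PDI1 in the untreated library (0.646 to 0.679) and 0.660 times in the H2O2-treated library (0.649 to 0.671), so chaperone and isomerase transcripts kept their proportion within counting error. In the hmt-deficient library it was 0.370 times (0.359 to 0.381), which is 44.1% below the untreated proportion.

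The proportion of oxidase to its partner differed more. PDI1 was 5.05 times ERO1 in the untreated library (4.85 to 5.27), 1.51 times after H2O2 (1.48 to 1.54) and 2.17 times in the hmt-deficient library (2.10 to 2.23). ERO1 therefore stood higher relative to PDI1 in both other libraries than in untreated GS115. KAR2 was 3.35 times ERO1 in untreated GS115 (3.21 to 3.49), 0.998 times with H2O2 (0.979 to 1.02) and 0.801 times without hmt (0.774 to 0.829).

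HAC1 gave the regulator's proportion. KAR2 was 2.14 times HAC1 in untreated GS115 (2.05 to 2.23), 2.74 times with H2O2 (2.65 to 2.83) and 0.804 times without hmt (0.773 to 0.836). The hmt-deficient library was the only 1 of the 3 in which the HAC1 level exceeded that of KAR2. PDI1 was 3.23, 4.15 and 2.17 times HAC1 in the same order. ERO1 was 0.639 times HAC1 untreated, 2.74 times after H2O2 and 1.00 times in the hmt-deficient library (0.964 to 1.04).

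**Figure D4:**
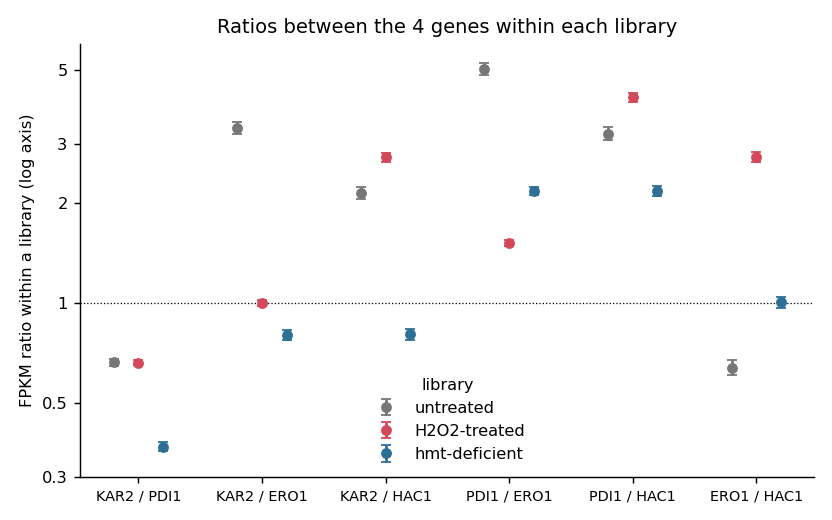
FPKM ratio (log axis) of the first to the second gene for the 6 pairs of genes within each library, with 95% counting intervals; the dotted line marks equal levels. The KAR2 to PDI1 ratio is 0.662 and 0.660 in the untreated and H2O2-treated libraries and 0.370 in the hmt-deficient one.

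Across the 3 libraries the highest level of ERO1 was 4.92 times its lowest, that of KAR2 3.04 times, that of PDI1 1.70 times and that of HAC1 1.29 times. Among 4623 genes with at least 10 FPKM in each library these ranges stood at percentiles 92.6, 79.8, 36.6 and 9.95. These places depended on scaling, as added after seeing the data. With each library divided by its median gene the percentiles were 96.1 for ERO1, 90.2 for KAR2, 66.2 for PDI1 and 30.3 for HAC1, and with TPM 91.2, 70.6, 21.4 and 15.7. The 4 genes together made up 0.119% of all FPKM in untreated GS115, 0.197% with H2O2 and 0.119% without hmt. Without hmt, lower shares of KAR2 and PDI1 than in untreated GS115 stood beside higher shares of ERO1 and HAC1.

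Genes with the most similar patterns were sought by the Euclidean distance between log2 levels (FPKM plus 1) in the 3 libraries, each gene centred on its own mean. With only 3 libraries, many genes resemble one another by this measure. The gene nearest to KAR2 was PAS_chr2-2_0294 (distance 0.0044), with FPKM of 514 untreated, 755 with H2O2 and 248 without hmt, followed by PAS_chr1-4_0689 (0.046). Nearest to PDI1 were PAS_chr1-4_0697 (0.019) and PAS_chr2-1_0633 (0.032), the latter at 242, 347 and 203 FPKM in the same order.

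ERO1 had few close matches. Its nearest gene, PAS_chr3_0039 (distance 0.104), had FPKM of 99.8 untreated, 447 with H2O2 and 186 without hmt, and PAS_chr1-1_0130 (0.134) came next. Within a distance of 0.2 there were 3 genes for ERO1, 16 for KAR2, 102 for PDI1 and 204 for HAC1. HAC1 was nearest to PAS_chr3_0724 (0.011) and PAS_chr3_0397 (0.013). None of the 4 genes was among the nearest to another: PDI1 was number 307 of 4622 in distance from KAR2 (0.68), and ERO1 number 2602 (1.56). The places depended on the gene they were counted from. Counted from ERO1, PDI1 was number 571 (1.26) and KAR2 number 1210 (1.56), both nearer than the median gene (1.94). Counted from HAC1, KAR2 was number 3849 (1.32) and ERO1 number 4128 (1.52), both farther than the median gene (0.76).

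The nearest listed neighbours on the chromosome, by the gene order of RefSeq assembly ASM2700v1, resembled the 4 genes to different degrees. KAR2 lay between PAS_chr2-1_0139 (FPKM 102 untreated, 121 with H2O2, 105 without hmt) and PAS_chr2-1_0141 (46.7, 63.4 and 56.3 FPKM). Neither shared the lower level of KAR2 in the hmt-deficient library. ERO1 lay between PAS_chr1-1_0010 (51.2, 49.5 and 93.6 FPKM) and PAS_chr1-1_0012 (104, 54.6 and 75.0 FPKM), neither of them higher after H2O2. Without hmt, however, PAS_chr1-1_0010 was 1.83-fold higher than untreated (1.72 to 1.95), beside 2.02-fold for ERO1, while PAS_chr1-1_0012 was lower.

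Beside PDI1, PAS_chr4_0843 had 575 FPKM untreated, close to PDI1 itself, but 106 FPKM with H2O2, 5.45-fold lower (5.06 to 5.87), and 227 FPKM without hmt. On the other side PAS_chr4_0845 was at 87.3, 148 and 87.2 FPKM, a pattern near that of PDI1 (distance 0.17). HAC1 was followed by PAS_chr1-1_0382, with FPKM of 482 untreated, 2723 with H2O2, 5.64-fold higher (5.47 to 5.83), and 403 without hmt. The listed gene before HAC1, PAS_chr1-1_0379, was low, at 15.2, 12.2 and 27.0 FPKM. Their distances from the pattern of HAC1 were 2.17 and 0.65 in the order named.

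**Figure D5:**
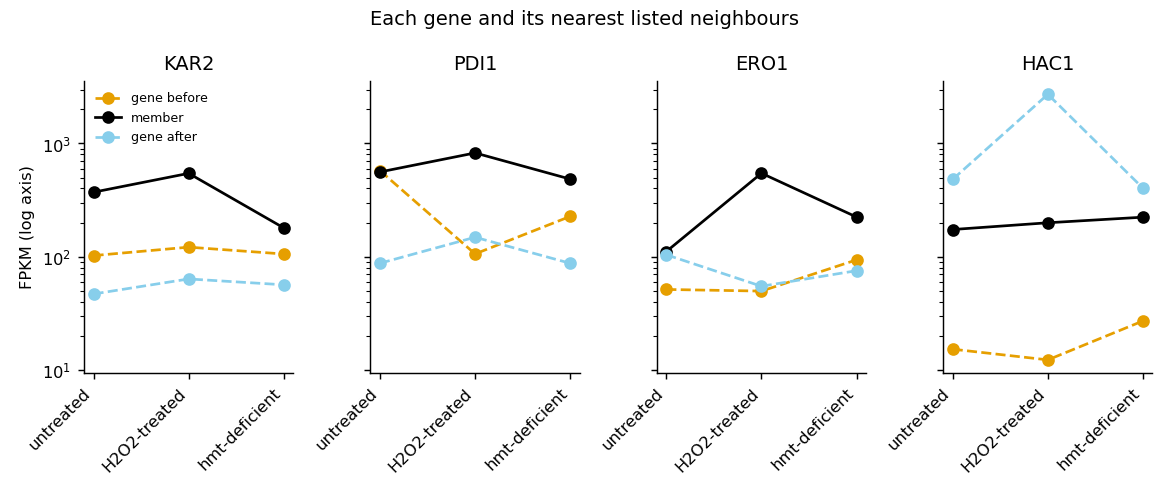
FPKM (log axis) of each of the 4 genes (black) and of the nearest listed gene before (orange) and after (sky blue) it in gene order, in each of the 3 libraries. The gene before PDI1 is at 106 FPKM after H2O2 while PDI1 is at 825, and the gene after HAC1 is at 2723 while HAC1 is at 199.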

How the data were processed

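Gene-level FPKM, so headed per the file headers, was deposited by the authors for 3 groups of 1 library each. HISAT2, HTSeq, featureCounts, Trimmomatic 0.39 and FastQC 0.12.1 appear in the submitters' processing notes without roles. Neither build nor annotation is given in the sources used here. The authors also deposited normalized columns. That of the H2O2-treated library equalled its FPKM for all 5040 genes, that of the hmt-deficient library was FPKM times 1.14, and the untreated library was read as FPKM. The untreated table also holds the H2O2-treated FPKM, equal for 5040 genes.

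Fragments were recovered as FPKM times coding length (RefSeq assembly ASM2700v1, whole codons) times a fitted library total. Within 0.1 of a whole number lay 96.8% of 3557 untreated, 86.4% of 2224 H2O2-treated and 92.6% of 2261 hmt-deficient values checked. Lengths were taken from that assembly although the authors' build is unknown, so no coordinates are given. Ratios of FPKM carry exact conditional binomial 95% intervals, and levels carry exact Poisson intervals. Log2 ratios used a pseudocount of 1 and a minimum of 10 FPKM in at least 1 library, and understate changes of low genes. Python 3.11.15, NumPy 2.4.6, pandas 2.3.3 and SciPy 1.17.1 were used, and the code was tested on simulated data.

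The members were chosen with earlier results of these data known. Beside them, the text names the chromosomal neighbours and the 2 genes nearest in pattern to each. Planned lists of other ER proteins, of sequence relatives and of promoter motifs needed protein, promoter or product tables, which were not used here, so no other gene of the pathway is described and no sequence is printed. Alternatives were scaling to equal totals (TPM), centring on the median, the normalized column, other pseudocounts and minimums, and a 4-fold threshold.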

Additional observations from a re-analysis of the deposited data

How the results depend on the processing

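With 1 library in each group, the depth limits only the counting error and nothing here measures the spread between cultures. Of 171 alternative values 117 stayed within the counting interval (ratios) or within 1.5 times (counts), 53 moved and 1 changed sign; because the intervals are narrow, any rescaling moves most ratios. The counts of members under each alternative, and the comparison with genes of like level or length, were added after seeing the data. The 18 ratios between genes within a library were also computed from recovered fragments, which were made from FPKM and so return the same ratios by construction; they are not in these counts.

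Scaled to equal totals (TPM), the log2 ratios of KAR2, PDI1, ERO1 and HAC1 were 0.48, 0.49, 2.22 and 0.13 in the first comparison (H2O2-treated over untreated), -0.92, -0.086, 1.13 and 0.48 in the second (hmt-deficient over untreated), and -1.40, -0.57, -1.09 and 0.36 in the third (hmt-deficient over H2O2-treated). Centred on the median they were 0.94, 0.94, 2.67 and 0.58 in the first comparison, -0.98, -0.14 and 1.07 for KAR2, PDI1 and ERO1 in the second, and -1.94, -1.11, -1.62 and -0.18 in the third, where HAC1 changed sign because, by construction, the median of 0.34 was subtracted. With the authors' normalized column they were -0.85, -0.014, 1.20 and 0.55 against untreated and -1.40, -0.57, -1.09 and 0.36 against H2O2-treated. Against H2O2-treated this column is itself a scaling to equal totals, so it repeats TPM by construction. It is not a separate check there, although both were counted among the alternatives. Against untreated the column leaves the library totals unequal, so its ratios there lie above those of TPM. With a pseudocount of 10, ERO1 after H2O2 was 2.20 and KAR2 in the third comparison -1.55.

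Between hmt-deficient and untreated, the number of the 4 genes at least 2-fold lower was 0 in place of 1 with TPM, centring and the normalized column, and the number higher was 0 in place of 1 with a pseudocount of 10. At 4-fold both numbers were 0, as was the number lower in the third comparison (2 at 2-fold). Over all genes, centring gave 767 higher and 743 lower after H2O2, and 697 and 604 in the third comparison, a shift that subtracting the median brings by construction. At 4-fold there were 471 genes (129 higher, 342 lower), 266 (166, 100) and 320 (275, 45) in the 3 comparisons, and a minimum of 50 FPKM gave 743 higher in the third. Alternatives for lists of other ER proteins and for sequence relatives were not run. No paired analysis was possible because each group holds 1 library and the labels give no replicate numbers.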
